A study of Mus musculus with 7 samples.

Results

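The genes described here encode the NF-kB transcription factors Rel, Rela, Relb, Nfkb1 and Nfkb2, the inhibitory or IkB-like proteins Nfkbia, Nfkbie and Bcl3, and the NF-kB-induced regulators Tnfaip3 and Traf1. They were chosen by name, and their probes were found through the array's gene symbols or current names by Entrez number. Of the 10 genes, 9 had a named probe, with 10 probes among the 23978 named probes of the array. Nfkb1 was not analysed here. All 10 probes were above background on at least 2 arrays, and 9 genes therefore entered the test, among 7425 genes tested.

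RNA from sorted spleen cells was hybridised to Illumina expression bead arrays, 1 array per sample, 7 in all. Per the labels the mice were C57Bl/6J, female and 10 weeks old. The reference group was 2 samples of naive B cells (B220+ CD43-) from untreated mice labelled as controls. The other samples came from mice given lipopolysaccharide (LPS), the bacterial cell wall agonist of TLR4, and were taken at day 3: 3 samples of plasmablasts (B220mid CD138+) and 2 of plasma cells (B220low CD138+). No array holds B cells shortly after LPS. The naive samples are an untreated reference and are not shown to be resting cells, since signal of sorting stress genes was highest in them, as given below. The samples are numbered, but the labels do not say that they are separate animals, so the p-values cover the spread among these samples alone, and that spread may be technical.

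NF-kB proteins act as dimers that share a DNA-binding Rel homology domain. In the canonical pathway, signals from Toll-like receptors, the B cell receptor or CD40 activate the IkB kinase complex, which marks IkB proteins for destruction and frees Rela and Rel dimers. In the non-canonical pathway the kinase NIK causes the Nfkb2 product p100 to be processed to p52, which pairs with Relb. Several of these genes are themselves NF-kB targets, and Nfkbia and Tnfaip3 encode proteins that shut the signal off. In B cells Rel and Rela serve activation and proliferation, and Relb with Nfkb2 serves maturation and survival signals such as those of BAFF.

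Per array, 8817 to 9930 of the 25697 probes passed a detection p of 0.01 (called above background here), and arrays of one population correlated at r = 0.994 to 0.995 across genes. Arrays of different populations correlated at 0.797 to 0.828. The labels give all 7 arrays the same slide, with the groups side by side on it, so slide position and group cannot be told apart. The naive B cell arrays went against their label in 1 respect. The Y-linked genes Eif2s3y and Kdm5d were above background on both of them and on 0 of the 5 LPS arrays, while Xist, expressed from the inactive X, was above background on all 5 LPS arrays and on neither naive array (the Y-linked Uty probe was above background on all 7). Sex and LPS treatment therefore cannot be told apart in the comparisons with naive B cells. The comparison of plasma cells with plasmablasts does not use the naive arrays' means, and fitted without those arrays it called the same number of NF-kB genes, 8. Normalization, the background filter and the choice of probe still used all 7 arrays.

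The populations were checked against marker lists. Cd79a, a B cell receptor chain, had a normalized log2 signal, the scale used throughout, of 14.71 and 14.85 in naive B cells, of 13.87 to 14.07 in plasmablasts and of 11.66 and 12.18 in plasma cells. Xbp1, a plasma cell transcription factor, rose from 11.94 and 12.02 to 15.17 or above on the plasmablast arrays and to 14.95 and 15.07 on the plasma cell arrays. Plasma cell markers as a list (12 genes) were higher in plasmablasts than in naive B cells for 12. In plasma cells 7 of them (58.3%) were lower and 0 higher than in plasmablasts, with a median log2 difference of -1.29. Their summed signal was 26505 to 28270 in naive B cells, 113907 to 115772 in plasmablasts and 87653 to 91948 in plasma cells. Prdm1, which encodes Blimp-1, averaged 9.04 in plasmablasts and 7.38 in plasma cells. Markers of other cells differed too. The summed signal of 21 myeloid markers was 44703 to 50975 in naive B cells, 6306 to 10897 in plasmablasts and 150801 to 154309 in plasma cells. Of the 21, 13 were lower and 3 higher in plasmablasts than in naive B cells, and 18 were higher and 0 lower in plasma cells than in plasmablasts. Against naive B cells 14 were higher and 6 lower in plasma cells. The macrophage genes Fcna and C1qc differed by -6.63 and -4.18 and the neutrophil gene S100a8 by 6.80, but macrophage genes did not move together. The macrophage gene Adgre1 differed by 0.57 (limma, adjusted p = 0.0707), and the myeloid genes Fcgr3 and Cd14 were higher by 1.88 and 2.64. The macrophage and neutrophil gene Lyz2 reached 15.32 and 15.33 on the plasma cell arrays. The summed signal of 19 sorting stress genes was 148962 to 154958 in naive B cells, 22334 to 32457 in plasmablasts and 32123 to 37726 in plasma cells. Summed signal of 9 red cell and platelet markers was 26657 to 36583 in naive B cells and at most 520.3 elsewhere. That of 11 T and NK cell markers ran from 5479 to 7745 over all 7 arrays, but its genes moved in opposite directions: 8 were higher and 1 lower in plasmablasts, and 9 higher and 1 lower in plasma cells, each against naive B cells. In plasma cells against plasmablasts 5 were higher and 4 lower. Thy1 averaged 5.33, 8.02 and 10.74 in naive B cells, plasmablasts and plasma cells, and Cd3g 5.64, 8.28 and 10.13. Cd28 averaged 5.05, 10.30 and 9.50 in the same order, and Prf1 8.79, 11.15 and 10.21, while Cd2 averaged 12.25, 10.10 and 7.79. The T cell gene Cd3e was above background on neither naive B cell array, on 0 of 3 plasmablast arrays and on both plasma cell arrays. Myeloid and T cells express NF-kB genes as well, and the part of these cells and of sorting stress in the differences below was not tested. In sorted pools, fewer cells of a type and less RNA per cell cannot be told apart.

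**Figure D1:**
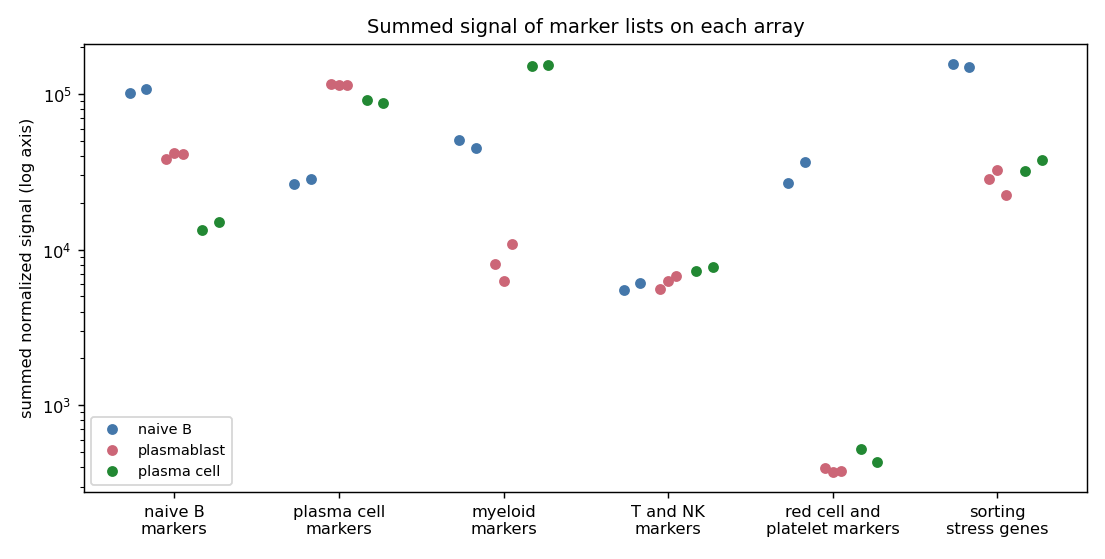
Summed normalized signal (linear units, log axis) of the marker lists on each array, 1 point per array, coloured by population. Myeloid markers lie lowest on the 3 plasmablast arrays (6306 to 10897) and highest on the 2 plasma cell arrays (150801 to 154309), while red cell markers and sorting stress genes lie highest on the 2 naive B cell arrays.

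The sequences in front of these genes are shown first, since the pathway acts on several of its own genes. RefSeq promoter windows of assembly GRCm38.p6, from 250 bases before to 50 after an annotated start, were found for 8 of the 10 genes (11 windows). The 10-base kappaB consensus, searched on both strands, occurred in 8 of the 11 windows (72.7%) and for 6 of the 8 genes. By gene, the consensus occurred for 12.2% of tested genes and 9.55% of all genes with a window. By window, it occurred in 10.4% of 7890 windows of genes tested on the arrays and in 8.46% of 32851 windows of all genes. GC content was 62.3% in the windows of the NF-kB genes, 60.2% in those of tested genes and 53.8% in all. A looser pattern that includes the consensus, GGG and CC with any 5 bases between, was in 90.9%, 66.5% and 50.8% of the same windows. Some of the windows of Nfkb2 overlap, so a match that they share is counted in each. A match is a description of letters, not of a bound site.

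A window is printed for each of 5 genes that stand for the patterns described below: Nfkb2 and Nfkbia, whose plasmablast arrays alone stood apart, Tnfaip3 and Traf1, whose plasma cell arrays were highest, and Rel, which was low in both LPS populations. Capitals mark kappaB consensus matches on either strand, and positions count from the annotated start.
Nfkb2 (chr19:46304487-46304786, plus strand, matches beginning at -39, -38 and -11): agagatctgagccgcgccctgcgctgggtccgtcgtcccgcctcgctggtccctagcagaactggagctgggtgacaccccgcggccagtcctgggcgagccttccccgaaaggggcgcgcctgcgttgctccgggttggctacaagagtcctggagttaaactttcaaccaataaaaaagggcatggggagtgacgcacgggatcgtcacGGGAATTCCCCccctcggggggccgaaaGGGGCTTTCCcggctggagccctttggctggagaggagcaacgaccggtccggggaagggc
Nfkbia (chr12:55492598-55492897, minus strand, match beginning at -29): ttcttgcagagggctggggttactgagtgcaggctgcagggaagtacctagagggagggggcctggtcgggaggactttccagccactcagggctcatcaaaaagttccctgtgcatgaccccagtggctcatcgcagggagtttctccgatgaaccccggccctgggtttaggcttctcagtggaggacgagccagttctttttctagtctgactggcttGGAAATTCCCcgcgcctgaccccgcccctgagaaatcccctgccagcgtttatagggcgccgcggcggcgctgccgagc
Tnfaip3 (chr10:19015361-19015660, minus strand, matches beginning at -125 and -12): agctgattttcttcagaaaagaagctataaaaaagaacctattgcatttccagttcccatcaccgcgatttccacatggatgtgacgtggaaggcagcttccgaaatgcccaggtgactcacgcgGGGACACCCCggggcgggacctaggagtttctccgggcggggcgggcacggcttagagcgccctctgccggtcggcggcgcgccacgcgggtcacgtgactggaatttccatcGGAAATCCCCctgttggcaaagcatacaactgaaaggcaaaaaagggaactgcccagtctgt
Rel (chr11:23770920-23771219, minus strand, matches beginning at -92 and -91): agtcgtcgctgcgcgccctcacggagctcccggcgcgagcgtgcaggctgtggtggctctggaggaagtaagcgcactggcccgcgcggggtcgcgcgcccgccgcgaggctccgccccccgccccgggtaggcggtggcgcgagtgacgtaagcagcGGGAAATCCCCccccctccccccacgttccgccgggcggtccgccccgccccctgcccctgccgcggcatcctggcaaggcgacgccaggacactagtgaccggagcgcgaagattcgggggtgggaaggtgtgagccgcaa
Traf1 (chr2:34961723-34962022, minus strand, no match in this window): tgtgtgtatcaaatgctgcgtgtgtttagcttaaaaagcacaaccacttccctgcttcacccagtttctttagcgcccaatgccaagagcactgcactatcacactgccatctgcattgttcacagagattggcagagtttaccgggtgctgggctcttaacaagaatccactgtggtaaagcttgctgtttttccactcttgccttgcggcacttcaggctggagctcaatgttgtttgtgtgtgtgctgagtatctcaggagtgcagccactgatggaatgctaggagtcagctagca
The Bcl3 window held a match at 3 after the start and the Nfkbie window at -106. The windows of Rela and Traf1 held none, nor did the other Tnfaip3 window (chr10:19011914-19012213, minus strand). All 9 measured genes fell in plasmablasts, as described next, so these data cannot relate the fall to the presence of a match.

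All 9 measured NF-kB genes were lower in plasmablasts than in naive B cells, by 1.64-fold (Nfkbia) to 4.76-fold (Relb) in measured means. Of them, 8 were higher in plasma cells than in plasmablasts, by 1.39-fold (Rela) to 3.78-fold (Traf1) in measured means, and Rel was the exception. Nfkb2 was above background on no plasmablast array. Its fall and its rise are therefore lower bounds, and either may exceed the top of its range. Against naive B cells, plasma cells were lower for Rel, Rela, Relb and Nfkbie, higher for Traf1 and Tnfaip3, and not called for Nfkb2, Nfkbia and Bcl3. These counts stand beside a high background of calls (limma, Benjamini-Hochberg adjusted p under 0.05 over all 7425 genes). In the plasmablast comparison 37.8% of all genes were called lower, and in plasma cells against plasmablasts 28.7% were called higher. No NF-kB gene was called higher in the former (35.3% of all genes were) or lower in the latter (46%). Plasma cells against naive B cells had 33.3% of all genes called higher and 37.8% lower. Counting both directions, 73.1% of all genes were called in the plasmablast comparison with naive B cells, 71.1% in that of plasma cells with naive B cells, and 74.7% between the LPS populations.

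**Figure D2:**
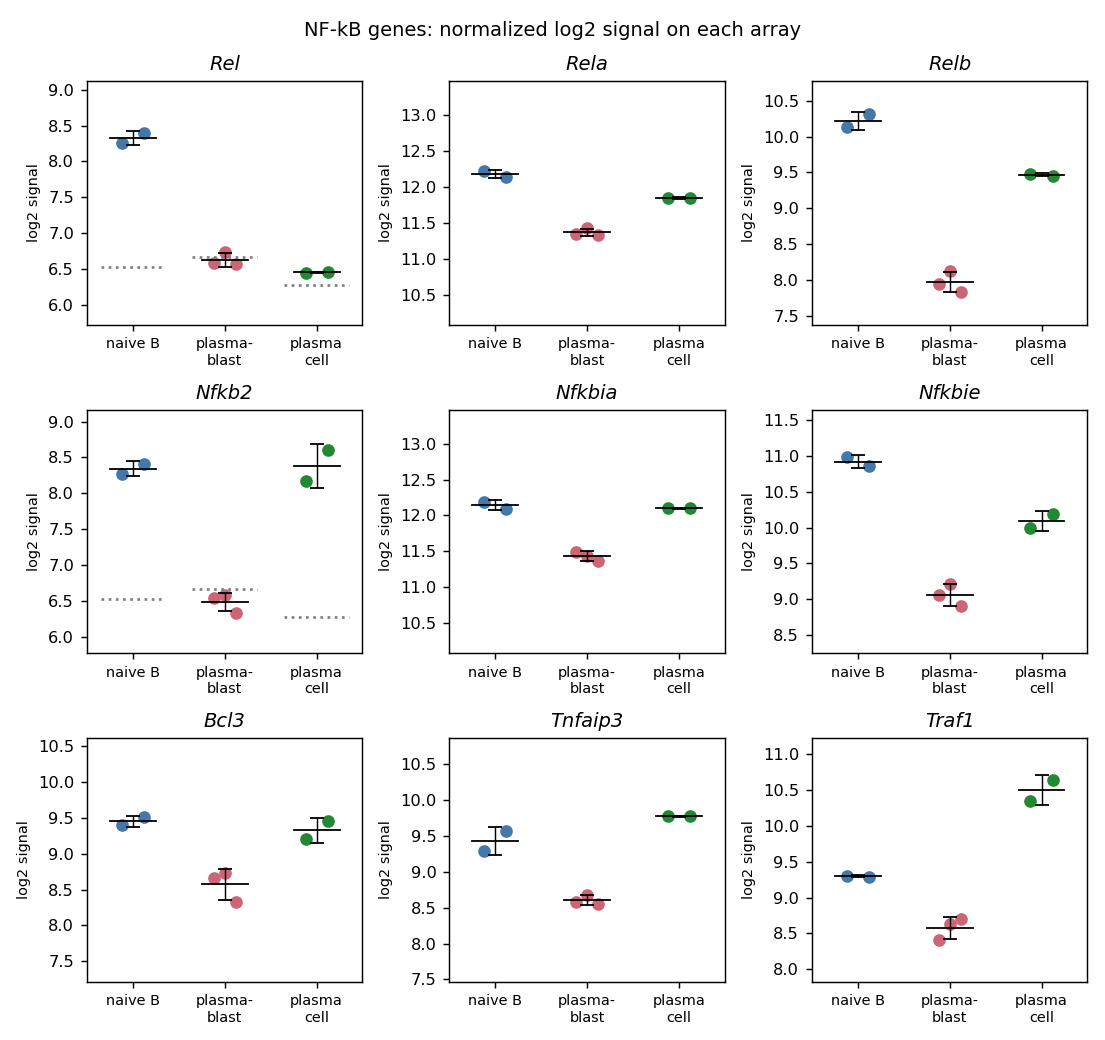
Normalized log2 signal of the 9 measured NF-kB genes on each array (points), with the mean (bar) and SD (error bar) of the 2 naive B cell, 3 plasmablast and 2 plasma cell arrays. Every panel spans the same log2 range, and dotted lines, drawn for Rel and Nfkb2, mark the mean background limit of the group's arrays. The plasmablast points lie below the naive B cell points in all 9 panels.

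Relb, the partner of p52 in the non-canonical pathway, showed the largest measured fall of the 9 genes. The fall of Nfkb2 is known only as a lower bound and cannot be ranked against it. The signal of Relb was 10.13 and 10.31 in naive B cells, 7.95, 8.12 and 7.84 in plasmablasts, and 9.48 and 9.45 in plasma cells. The 3 groups did not overlap, with plasma cells in between. Relb fell by 2.25 on the log2 scale in plasmablasts (SE 0.11, adjusted p = 6.12e-07), and only 4.73% of all genes fell further. In plasma cells it was 2.82-fold higher than in plasmablasts (adjusted p = 7.77e-06) and stayed 1.68-fold below naive B cells (adjusted p = 0.000630).

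Nfkb2 encodes p100, both an inhibitor of Relb and the precursor of p52. It read 8.27 and 8.41 in naive B cells, 6.54, 6.58 and 6.33 in plasmablasts, and 8.17 and 8.60 in plasma cells. The plasmablast arrays stood apart below the others, and naive B cells and plasma cells overlapped. On 0 of 3 plasmablast arrays was the probe above background (detection p 0.0138 to 0.0263, scanner signal 195 to 205 units against 456 to 614 on the other arrays). Its level there is therefore a bound, measured up to the lowest signal above background on those arrays: Nfkb2 was at least 3.19-fold lower in plasmablasts than in naive B cells (measured means 6.48 and 8.34, adjusted p = 7.83e-06). Plasma cells were at least 3.29-fold higher than plasmablasts (adjusted p = 9.73e-06). Plasma cells and naive B cells differed by 0.04 on the log2 scale, with a 95% interval of -0.32 to 0.41 (adjusted p = 0.811).

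Rel encodes c-Rel, the subunit most typical of activated lymphocytes. Its signal was 8.26 and 8.40 in naive B cells, 6.58, 6.74 and 6.56 in plasmablasts, and 6.45 and 6.46 in plasma cells. Both LPS populations lay near background, with 1 of 3 plasmablast arrays and both plasma cell arrays above it. Rel fell by 1.70 in plasmablasts (SE 0.09, adjusted p = 1.2e-06) and by 1.87 in plasma cells (SE 0.10, adjusted p = 1.47e-06) against naive B cells. After normalization the plasma cell arrays were both below the plasmablast arrays. The difference of -0.18 (95% interval -0.39 to 0.04) was not called (adjusted p = 0.122) and was 0.090 under cyclic loess normalization. Before normalization, scanner signal of Rel was higher in plasma cells (245 and 248 units) than in plasmablasts (197 to 212 units). The median scanner signal of all probes was also higher on the plasma cell arrays (185 and 186 against 153 to 161 units). Without background correction the differences of Rel were -0.97 and -1.05 rather than -1.70 and -1.87, and the bounds of Nfkb2 were lower: at least 1.95-fold rather than 3.19-fold for the fall in plasmablasts, and at least 2.00-fold rather than 3.29-fold for plasma cells against plasmablasts.

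Rela encodes p65, the main activating subunit of the canonical pathway. It read 12.22 and 12.14 in naive B cells, 11.34, 11.43 and 11.34 in plasmablasts, and 11.84 and 11.85 in plasma cells. The groups did not overlap, in the same order as for Relb but over a narrower range. Rela fell by 0.81 in plasmablasts (SE 0.08, adjusted p = 3.68e-05) and was 1.39-fold higher in plasma cells than in plasmablasts (adjusted p = 0.000872). Its difference of -0.33 between plasma cells and naive B cells (adjusted p = 0.0101) was not called under 75th percentile scaling (-0.18, adjusted p = 0.121), under cyclic loess (-0.11, adjusted p = 0.309) or without naive B cell replicate 1 (-0.29, adjusted p = 0.0595).

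Nfkbia encodes IkB-alpha, the inhibitor that is degraded first and then made again as an early NF-kB target. Its signal was 12.19 and 12.09 in naive B cells, 11.50, 11.43 and 11.36 in plasmablasts, and 12.10 on both plasma cell arrays. The plasmablast arrays lay below all others, and the remaining 2 groups overlapped. It fell by 0.71 in plasmablasts (SE 0.08, adjusted p = 0.000104), or by 0.47 under 75th percentile scaling, and was 1.59-fold higher in plasma cells than in plasmablasts (adjusted p = 0.000164). Between plasma cells and naive B cells the difference was -0.04, with an interval of -0.25 to 0.17 (adjusted p = 0.708).

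Nfkbie encodes IkB-epsilon, which retains Rel and Rela dimers and was measured by 2 probes. The brighter probe read 10.98 and 10.85 in naive B cells, 9.05, 9.21 and 8.91 in plasmablasts, and 9.99 and 10.19 in plasma cells. The groups did not overlap, and plasma cells again lay in between. Nfkbie fell by 1.86 in plasmablasts (SE 0.12, adjusted p = 2.31e-06), rose 2.05-fold from plasmablasts to plasma cells (adjusted p = 8.46e-05) and was 1.78-fold lower in plasma cells than in naive B cells (adjusted p = 0.000536). The dimmer probe, above background on 0 of 3 plasmablast arrays, read 7.69 and 8.21, then 6.31, 6.56 and 5.97, then 7.50 and 7.31 in the same order of groups. In the fit over all 10113 probes it was at least 2.43-fold lower in plasmablasts than in naive B cells (adjusted p = 0.000106) and at least 1.67-fold higher in plasma cells than in plasmablasts (adjusted p = 0.00113), bounds that became 1.63-fold and 1.29-fold without background correction. Its difference between plasma cells and naive B cells, -0.54, was not called (adjusted p = 0.0551). With both probes counted, 10 of 10 probes were lower and 0 higher in plasmablasts than in naive B cells (36.4% and 35.5% of all probes). In plasma cells against plasmablasts 9 were higher and 0 lower (27.9% and 46.3%), and against naive B cells 2 were higher and 4 lower (33% and 37.4%).

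Bcl3 is an IkB-like nuclear protein that joins p50 or p52 dimers on DNA. It read 9.40 and 9.51 in naive B cells, 8.66, 8.74 and 8.32 in plasmablasts, and 9.20 and 9.45 in plasma cells. Only the plasmablast arrays stood apart. Bcl3 fell by 0.88 in plasmablasts (SE 0.14, adjusted p = 0.000624) and was 1.69-fold higher in plasma cells than in plasmablasts (adjusted p = 0.00150). The difference between plasma cells and naive B cells was -0.12, with an interval of -0.48 to 0.23 (adjusted p = 0.495).

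Tnfaip3 encodes A20, a ubiquitin-editing enzyme that ends NF-kB signalling. Its signal was 9.29 and 9.57 in naive B cells, 8.59, 8.68 and 8.55 in plasmablasts, and 9.77 and 9.78 in plasma cells. The order was plasmablast, naive B cell, plasma cell, with no overlap. It fell by 0.82 in plasmablasts (SE 0.10, adjusted p = 0.000154) and rose 2.25-fold from plasmablasts to plasma cells (adjusted p = 2.40e-05). The difference of 0.35 between plasma cells and naive B cells (adjusted p = 0.0259) lost its call under 75th percentile scaling (adjusted p = 0.0675) and without naive B cell replicate 1 (0.20, adjusted p = 0.168). It also lost it when either plasma cell array was left out (adjusted p of 0.0732 without replicate 1 and of 0.0793 without replicate 2).

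Traf1, an adaptor of TNF receptor family members and an NF-kB target in lymphocytes, was the one of the 9 that rose most above its naive level. It read 9.31 and 9.29 in naive B cells, 8.41, 8.63 and 8.70 in plasmablasts, and 10.35 and 10.65 in plasma cells. The 3 groups did not overlap. Traf1 fell by 0.72 in plasmablasts (SE 0.12, adjusted p = 0.000942), was 3.78-fold higher in plasma cells than in plasmablasts (adjusted p = 4.13e-06) and 2.30-fold higher than in naive B cells (SE 0.14 on the log2 scale, adjusted p = 9.21e-05). Between plasma cells and plasmablasts, 7.84% of all genes had a larger rise.

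Taken as a list, the 9 genes had a median log2 difference of -0.88 in plasmablasts against naive B cells, where the median of all genes was -0.02. In plasma cells against plasmablasts the medians were 1.03 and -0.22, and in plasma cells against naive B cells -0.12 and -0.08. Groups did not overlap for 9 of 9 genes in the plasmablast comparison, all lower, against 42.7% of all genes lower and 40.3% higher. From plasmablasts to plasma cells 8 were higher without overlap (31.5% of all genes) and Rel lower (51.3%). Plasma cells against naive B cells had 2 higher and 4 lower without overlap (39.6% and 46.4% of all genes). The comparisons share arrays, so their directions are not independent. The summed myeloid signal was also lowest in plasmablasts and the summed stress signal highest in naive B cells. Cyclic loess moved the median of all genes by 0.21 in plasma cells against plasmablasts, and the share of calls that were higher from 38.4% to 52.5%. Relative to the median of all genes, the measured differences of the 8 risen genes were 0.70 (Rela) to 2.14 (Traf1), and that of Rel was 0.04.

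**Figure D3:**
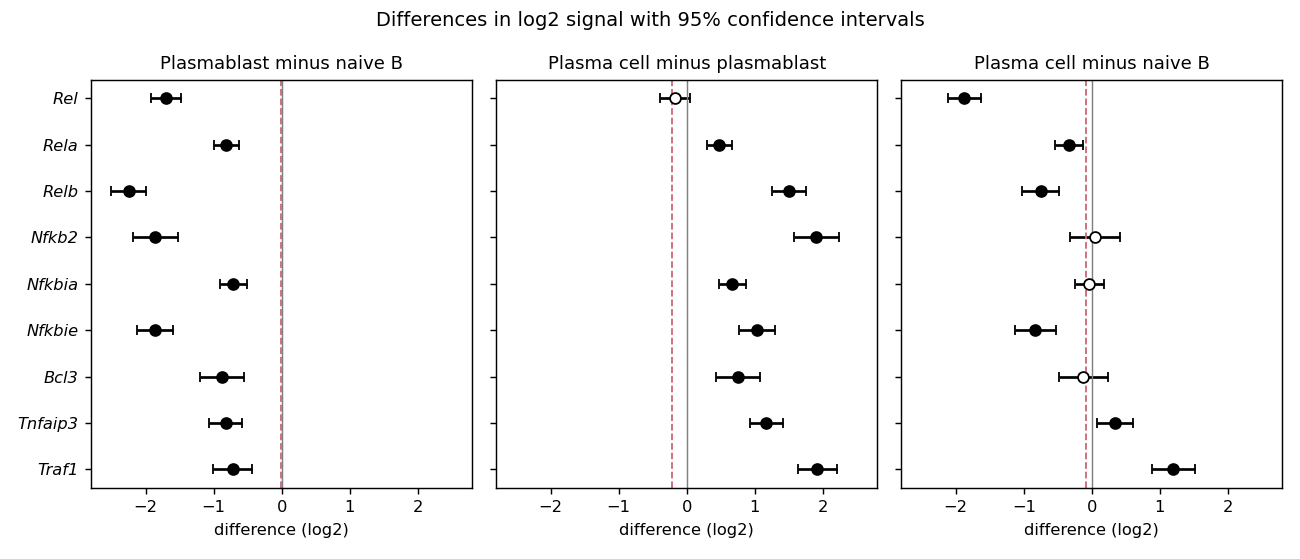
Differences in normalized log2 signal (points) with 95% confidence intervals (bars) of the 9 NF-kB genes in the 3 comparisons; filled points passed an adjusted p of 0.05, open points did not, and the dashed line marks the median of all genes. All 9 lie below 0 for plasmablasts minus naive B cells, and 8 lie above 0 for plasma cells minus plasmablasts, with Rel at -0.18.

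The profiles of the genes over the 7 arrays were compared by root mean square distance, each centred on its own mean but not scaled. The distance therefore reflects the size of a gene's changes as well as their order over the groups. The closest pair was Rela and Nfkbia (0.12 log2 units), followed by Nfkbia and Bcl3 (0.14) and Rela and Bcl3 (0.17), the canonical subunit with an inhibitor and an IkB-like protein. Relb was nearest to Nfkbie (0.24) and then to Nfkb2 (0.33). Rel and Traf1 were the farthest apart (1.20). For comparison, the median within-group SD of these genes was 0.12.

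Among all tested genes, those nearest to each subunit over the 7 arrays were as follows. For Rel they were Mybpc2, Tnfrsf4 (distance 0.08) and Bbs4 (0.09), and Tnfrsf4, the receptor OX40, read 8.46 and 8.53 in naive B cells, 6.65 to 6.88 in plasmablasts, and 6.36 and 6.52 in plasma cells. For Rela they were Sri (0.04), Scp2 (0.04) and Arhgdib (0.04), for Relb Fyco1, Prr7 and Rasgrp2, and for Nfkb2 Nckap1l (0.08), Tmem141 and Dlgap4 (0.11). For 5 of the 12, those given without a distance, no array of at least 1 population was above background (plasmablasts for Fyco1, Prr7, Rasgrp2 and Tmem141, both LPS populations for Mybpc2), so their distance and rank are not measured. Nfkb2 itself was not above background in plasmablasts, which limits its distances too. The likeness is a description of 3 group levels, and 3 of these 12 genes stayed among the nearest without background correction.

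Other genes of the pathway were read from 4 lists, and their counts stand beside the same shares of all genes as above: 35.3% higher and 37.8% lower in plasmablasts and 33.3% and 37.8% in plasma cells, both against naive B cells, and 28.7% and 46% in plasma cells against plasmablasts. Of the 13 other inhibitors, 10 were tested: 2 rose and 7 fell in plasmablasts against naive B cells (median -0.55), 4 rose and 1 fell from plasmablasts to plasma cells (median 0.24), and 2 were higher and 6 lower in plasma cells than in naive B cells (median -0.24). Nfkbid, the nuclear IkB protein IkBNS, fell most. It read 12.42 and 12.47 in naive B cells, 9.25, 9.48 and 9.21 in plasmablasts, and 9.35 and 9.79 in plasma cells, so that, like Rel, it stayed low in both LPS populations. It fell by 3.13 in plasmablasts (adjusted p = 4.82e-07) and by 2.87 in plasma cells (adjusted p = 1.48e-06). The deubiquitinase gene Otulin fell by 1.20 in plasmablasts, and Nfkbib, which encodes IkB-beta, fell by 1.04 in plasmablasts and by 0.99 in plasma cells, each against naive B cells. Tnip1, whose product binds A20, ran the way of Traf1. Its signal was 11.25 and 11.20 in naive B cells, 10.45, 10.57 and 10.36 in plasmablasts, and 12.86 and 12.84 in plasma cells. It differed by 2.39 between plasma cells and plasmablasts (adjusted p = 2.04e-07) and by 1.62 between plasma cells and naive B cells. Nfkbiz, the inducible IkB-zeta, was 0.89 higher and the deubiquitinase gene Cyld 0.48 lower on the log2 scale in plasma cells than in plasmablasts (difference for Cyld -0.26 under cyclic loess). Calls in this short list moved: 5 of 10 were called in plasmablasts against naive B cells without naive B cell replicate 1, and from plasmablasts to plasma cells 9 under cyclic loess, 3 without plasma cell replicate 2 and 3 with the replicate number as a block. In plasma cells against naive B cells 5 were called without naive B cell replicate 1 and 5 without plasma cell replicate 2.

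Kinases and adaptors that carry the signal were tested for 28 of 35 listed genes. In plasmablasts 7 rose and 17 fell against naive B cells (median -0.38), from plasmablasts to plasma cells 16 rose and 5 fell (median 0.43), and plasma cells against naive B cells had 11 higher and 11 lower (median -0.04). The last counts, 39.3% each, lie near the shares of all genes (33.3% and 37.8%), whereas 60.7% fell in plasmablasts and 57.1% rose from plasmablasts to plasma cells. Map3k14 encodes NIK, the kinase of the non-canonical pathway. It read 10.63 and 10.56 in naive B cells, 7.88 to 8.53 in plasmablasts, and 10.45 and 10.75 in plasma cells, with the plasmablast arrays alone standing apart, as for Nfkb2. It fell by 2.46 in plasmablasts (SE 0.19, adjusted p = 8.36e-06). The adaptor gene Traf5 was at least 4.32-fold lower in plasmablasts and at least 5.66-fold lower in plasma cells than in naive B cells (at least 2.45-fold and 2.73-fold without background correction). Tirap, which brings Myd88 to Toll-like receptors, was 2.08 higher on the log2 scale in plasmablasts than in naive B cells. Ikbke, an IkB kinase-related gene, stood at 6.65 and 6.76 in naive B cells, 6.63 to 6.98 in plasmablasts, and 10.67 and 10.35 in plasma cells. It differed by 3.67 between plasma cells and plasmablasts (adjusted p = 2.09e-07) and by 3.80 between plasma cells and naive B cells. The TLR4 adaptor gene Ticam2 had differences of 3.16 and 2.97 in these comparisons, and Irak3, an inhibitor of Toll-like receptor signalling typical of monocytes, had 3.06 between plasma cells and plasmablasts.

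Receptors upstream were tested for 18 of 21 genes. In plasmablasts 3 rose and 12 fell against naive B cells (median -0.67), from plasmablasts to plasma cells 11 rose and 5 fell (median 0.96), and 10 were higher and 7 lower in plasma cells than in naive B cells (median 0.88). As shares, 66.7% fell in plasmablasts, 61.1% rose from plasmablasts to plasma cells, and 55.6% were higher and 38.9% lower than in naive B cells, the last near the 37.8% of all genes. Cd40, which drives both pathways, read 12.58 and 12.57 in naive B cells, 8.85, 9.18 and 8.94 in plasmablasts, and 9.53 and 9.87 in plasma cells. It fell by 3.59 in plasmablasts (adjusted p = 1.96e-07). Tnfrsf17, the receptor BCMA, was at least 38.0-fold higher in plasmablasts and at least 31.5-fold higher in plasma cells than in naive B cells, or at least 16.3-fold and 13.6-fold without background correction. The largest rises from plasmablasts to plasma cells were those of Cd14 and of the TNF receptor genes. The LPS co-receptor gene Cd14 was at least 4.97-fold lower in plasmablasts than in naive B cells and at least 30.9-fold higher in plasma cells than in plasmablasts. The TNF receptor genes Tnfrsf1a and Tnfrsf1b were at least 11.5-fold and at least 5.66-fold higher in plasma cells than in plasmablasts. Against naive B cells, Tnfrsf1b was at least 6.24-fold higher in plasma cells and Tnfrsf1a differed by 3.70 on the log2 scale, with 1 of 2 naive B cell arrays above background. Without background correction the bounds for plasma cells against plasmablasts were 14-fold for Cd14, 5.59-fold for Tnfrsf1a and 3.03-fold for Tnfrsf1b. The bound for the lower Cd14 in plasmablasts was then 2.75-fold, and that for Tnfrsf1b against naive B cells 3.16-fold. Tnfrsf17 is also on the plasma cell marker list. On the same plasma cell arrays 18 of 21 myeloid markers, Cd14 among them, were higher than in plasmablasts, and their part in these rises was not tested.

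Known targets beyond the named pair were tested for 33 of 40 genes. In plasmablasts 9 rose and 19 fell against naive B cells (median -1.59), from plasmablasts to plasma cells 22 rose and 10 fell (median 1.18), and 16 were higher and 14 lower in plasma cells than in naive B cells (median 0.22). The corresponding shares were 57.6% fallen, 66.7% risen, and 48.5% higher with 42.4% lower. This list shares Cd69, Junb and Ier3 with the sorting stress genes and Irf4 with the plasma cell markers. The largest falls in plasmablasts were those of Lta and Ltb, which encode lymphotoxins, and Cd86, a costimulatory molecule gene. Lta was at least 12-fold lower, Cd86 fell by 4.41, with 2 of 3 plasmablast arrays above background, and Ltb fell by 4.15. Ltb stood at 13.54 and 13.68 in naive B cells, 9.12, 9.93 and 9.31 in plasmablasts, and 10.71 and 10.76 in plasma cells. Ccr7, the chemokine receptor gene of lymphoid homing, was at least 28.2-fold lower in plasma cells than in naive B cells. Without background correction the bounds were 5.82-fold for Lta and 11.1-fold for Ccr7. Inflammatory genes that myeloid cells express led the other way. The cytokine gene Il1b differed by 5.82 and the acute-phase gene Saa3 by 5.69 between plasma cells and plasmablasts. Against naive B cells, Saa3 was at least 314-fold and Lcn2, also on the myeloid list, at least 15.0-fold higher in plasma cells (at least 129.9-fold and 6.77-fold without background correction). Bcl2a1d, a survival gene with near-identical copies that its probe may not separate, differed by 4.20 between plasma cells and plasmablasts.

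**Figure D4:**
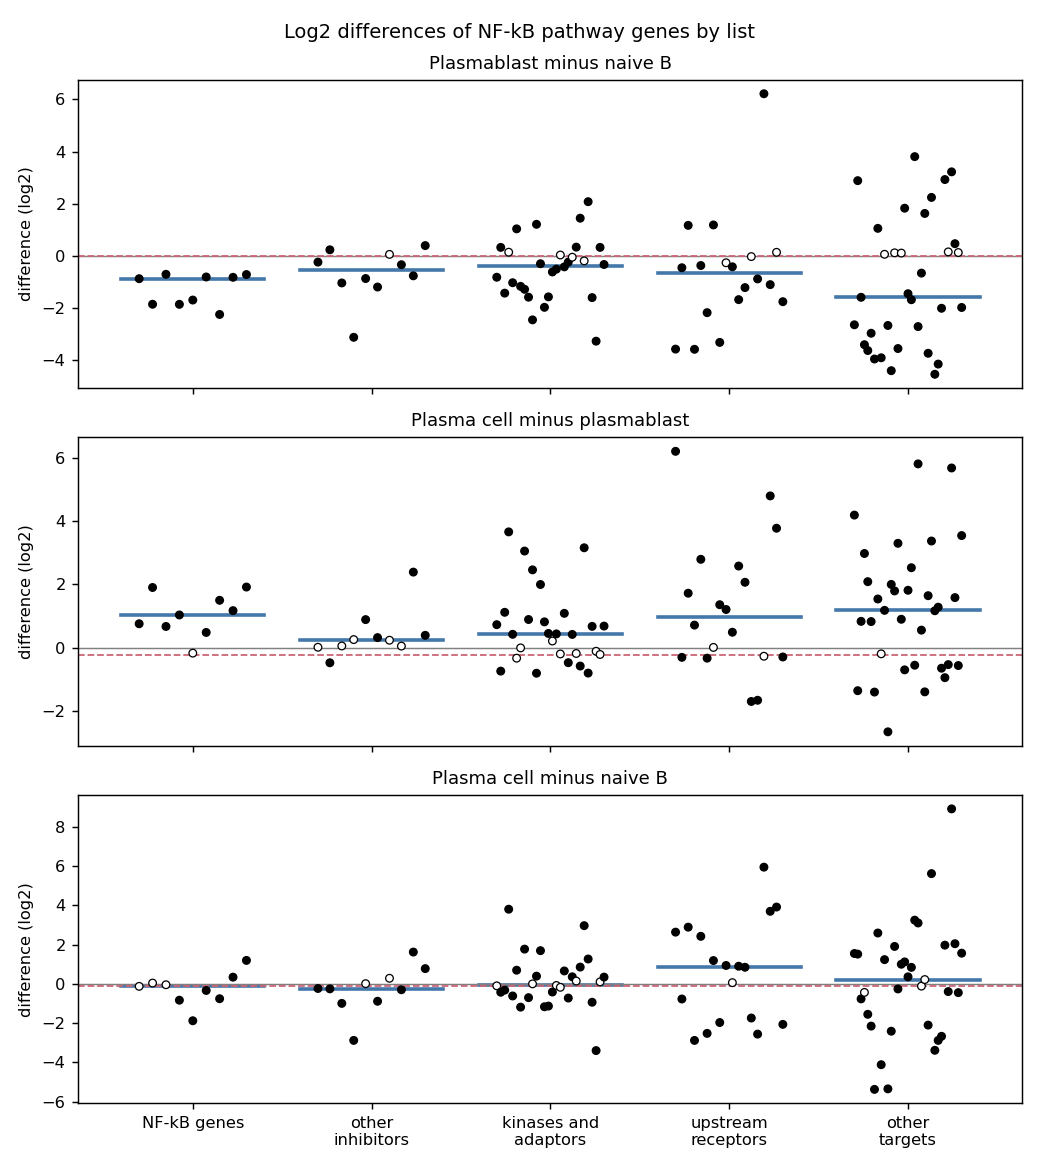
Log2 differences of the NF-kB genes and of the 4 other pathway lists in the 3 comparisons, 1 point per gene (filled where adjusted p was under 0.05), with the list median (blue bar) and the median of all genes (dashed line). List medians lie between -1.59 and -0.38 for plasmablasts minus naive B cells and between 0.24 and 1.18 for plasma cells minus plasmablasts, where the median of all genes was -0.22.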

How the data were processed

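The deposited scanner table holds an intensity for each probe and array, not background-subtracted or normalized (lowest value 101.8), and a detection p-value, per the file headers. Signals were exported with GenomeStudio 2011.1, per the submitters' processing notes. A second deposited table holds an intensity that the authors quantile normalized, checked to within 0.0119 log2 units, and served as an alternative. In R 4.3.3 with limma 3.58.1, neqc corrected background from the detection p-values, added an offset of 16, quantile normalized and took log2. Of 25697 probes, 23978 carried 1 gene symbol, 0 several and 1719 none, and symbols were updated by Entrez number for 23962. Named probes above background (detection p under 0.01) on at least 2 arrays were kept (10113), and the brightest stood for each gene (7425 genes). All 7 arrays entered 1 linear model (lmFit, eBayes) with a mean for each of 3 groups, Benjamini-Hochberg adjusted over all genes, called at adjusted p under 0.05. A fold reads "at least" where no array of the lower group was above background, and such bounds hold on the background-corrected scale. Array number limits precision.

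The genes and lists were chosen with earlier results of these data known. Named pathway genes are the 3 called genes of largest change per list and comparison. For each measured subunit the 3 genes of smallest profile distance are named. Alternatives were other background, scaling, filter, probe, sample, weighting and block choices, and leaving out each array. Promoter sequences are from RefSeq, GRCm38.p6.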

Additional observations from a re-analysis of the deposited data

How the results depend on the processing

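The 9 lower calls in plasmablasts against naive B cells and the 8 higher calls in plasma cells against plasmablasts held under all 19 alternatives. Over 27 differences of single NF-kB genes and these alternatives, 498 of 513 values kept direction and call. In plasma cells against naive B cells between 4 and 6 genes were called. There, Nfkbia turned to 0.10 under 75th percentile scaling, 0.17 under cyclic loess and, over the fits that left out 1 array, ranged from -0.090 to 0.0083. Bcl3 turned to 0.055 under cyclic loess and ranged from -0.25 to 0.00058 when 1 array was left out, and Nfkb2 ranged from -0.17 to 0.26. None of these was called under any setting. The median of the genes in that comparison was 0.055 under cyclic loess. Rel between plasma cells and plasmablasts was 0.090 under cyclic loess. The cause of these changes was not tested. All 676 values obtained for the 36 named pathway differences kept direction and call. The differences of Traf5 and Tnfrsf1b had values under 17 of the 19 alternatives. Sizes did not hold: every lower bound printed for a gene not above background was smaller without background correction and with the authors' normalized values. That of Saa3 against naive B cells went from 314-fold to 129.9-fold and 129-fold, and that of Ccr7 from 28.2-fold to 11.1-fold in both.

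The 12 nearest genes were less stable: 3 remained without background correction, 3 with the authors' normalized values, 4 with an offset of 50, 7 under 75th percentile scaling, and 7 to 9 when 1 array was left out. With replicate number as a block, 9, 6 and 8 genes were called in the plasmablast against naive, plasma cell against naive, and plasma cell against plasmablast comparisons, as without it. Deviations of same-numbered arrays from their group means correlated between -0.03 and 0.17, and the labels do not say that a number marks a shared animal. Signal near background limits Rel, Nfkb2 and the dimmer Nfkbie probe in plasmablasts.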
